A study of Saccharomyces cerevisiae with 74 samples.

Results

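Stable unannotated transcripts (SUTs) of the budding yeast Saccharomyces cerevisiae were followed through stress, translation block and loss of cytoplasmic RNA decay factors in 18 RNA-seq libraries, and through the binding of 3 translation initiation factors in 56 CRAC libraries. The RNA-seq tables list 8652 named S. cerevisiae features, of which 830 are SUTs. The 778 SUTs with a mean of at least 10 reads over the 18 libraries were taken as members. Just above that minimum stood ST2966, ST1095 and ST3180 with means of 10.4, 11.2 and 11.2 reads, and just below it ST7080, ST2114 and ST5225 with means of 9.83, 9.50 and 9.44 reads. The annotated length of the members, derived from the ratio of counts to the authors' RPKM values, ranged from 82 to 4915 nt with a median of 786 nt, and 303 of them exceeded 1000 nt. By comparison the median length was 378 nt for cryptic unstable transcripts (CUTs) and 1321 nt for protein-coding transcripts. The tables name each SUT by an ST number alone, so positions and neighbouring genes were not used here.

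SUTs are capped and polyadenylated transcripts of RNA polymerase II that encode no annotated protein and that can be detected in unperturbed wild-type cells. CUTs, the related class, come into view mainly when the nuclear exosome is impaired. Many members of both classes start at nucleosome-depleted regions that they share with the promoter of a neighbouring gene, and many run antisense to a gene. In the cytoplasm a decapped RNA is degraded from its 5′ end by the exonuclease Xrn1, while the exosome, with the helicase Ski2 as a cofactor, degrades RNA from the 3′ end. Cycloheximide blocks translation elongation and holds ribosomes on the RNA.

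All strains had the haploid BY4741 background, which is auxotrophic for histidine, leucine, methionine and uracil. Wild-type cells grown at 30 °C in SC -TRP medium with 2% glucose were harvested directly (control, 3 libraries), moved for 16 min to medium with 2% glycerol and 2% ethanol in place of glucose (glucose withdrawal, 2 libraries), moved for 16 min to medium at 42 °C (heat shock, 3 libraries), or treated in the same way with cycloheximide at 42 °C (2 libraries). Cells lacking SKI2 and cells lacking XRN1 were harvested as control and after heat shock, with 2 libraries for each. The xrn1 deletion strain came from a deletion collection, whereas SKI2 was deleted with a guide RNA against the end of its open reading frame, so each genotype stands for a single strain. Stressed cells were filtered and moved to new medium whereas control cells were not moved, and no RNA-seq library came from mock-shifted cells. RNA-seq libraries were made from poly(A)-selected RNA to which Schizosaccharomyces pombe RNA had been added, and levels are given here as reads per 1000000 S. pombe reads (scaled reads). Reads were counted on 1 strand, but a SUT cannot be told apart from another transcript that overlaps it on the same strand. In CRAC, RNA is crosslinked by UV light in living cells to a tagged protein and the purified fragments are sequenced, here for the helicase eIF4A, its cofactor eIF4B and the helicase Ded1, with 52 libraries from tagged and 4 from untagged cells. CRAC cells were harvested directly as control (6 libraries for eIF4A, 4 for eIF4B, 3 for Ded1), mock-shifted for 16 min to fresh glucose medium (4, 3 and 2), moved to glycerol and ethanol for 30 s (3, 2 and 2) or 16 min (4, 3 and 3), or moved to 42 °C for 16 min (4, 4 and 3). For eIF4B 2 further libraries came from cells at 42 °C with cycloheximide.

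The RNA-seq libraries held 27079139 to 47531279 counted reads, of which 123975 to 422469 fell on SUTs. The mRNA of the deleted gene was nearly lost in each mutant. XRN1 stood at 19162 to 23314 scaled reads in wild-type control and 286 to 380.3 in xrn1 deletion control, and SKI2 at 6287 to 7593 against 13.9 to 15.0 in ski2 deletion control. HSP26, a small heat shock chaperone, rose from 1398 to 2336 scaled reads in wild-type control to 455643 to 652310 at 42 °C. Libraries carry letters. The labels of A to F and of H to S describe the same procedure but name different ranges of libraries, so these lettered sets were also compared, without being stated to be batches. Both mutants and the cycloheximide group come from H to S, where wild type has only H (control) and I (heat shock). Among the wild-type heat shock libraries, I stood above E and F in summed SUT level, and counts without it are given where they changed by over 1.5 times.

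Together the members made up a small share of the poly(A) RNA. In wild-type control cells they summed to 189, 205 and 210.2 reads per 1000 S. pombe reads in libraries A, B and H, a mean of 201 ± 11.3 (SD, n = 3), or 4.09, 4.16 and 4.01 SUT reads per 1000 reads on protein-coding transcripts. Per kilobase of annotated length, the median member stood at 198 scaled reads, against 49.9 for CUTs and 1685 for protein-coding transcripts. The members were chosen by a read minimum, and with the same minimum of 10 reads the medians were 73.9 for CUTs and 1825 for protein-coding transcripts. No small set of members dominated, since 115 members were needed to reach 50% of the summed level in control and 82 with cycloheximide. By far the highest sums were found in xrn1 deletion control cells, with 664 and 742 reads per 1000 S. pombe reads, and in wild-type cells heat-shocked with cycloheximide, with 631 and 593. Of the 778 members, 431 had their highest group mean in xrn1 deletion control and 276 in heat shock with cycloheximide, while 251 had their lowest in wild-type heat shock and 230 in wild-type control.

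**Figure D1:**
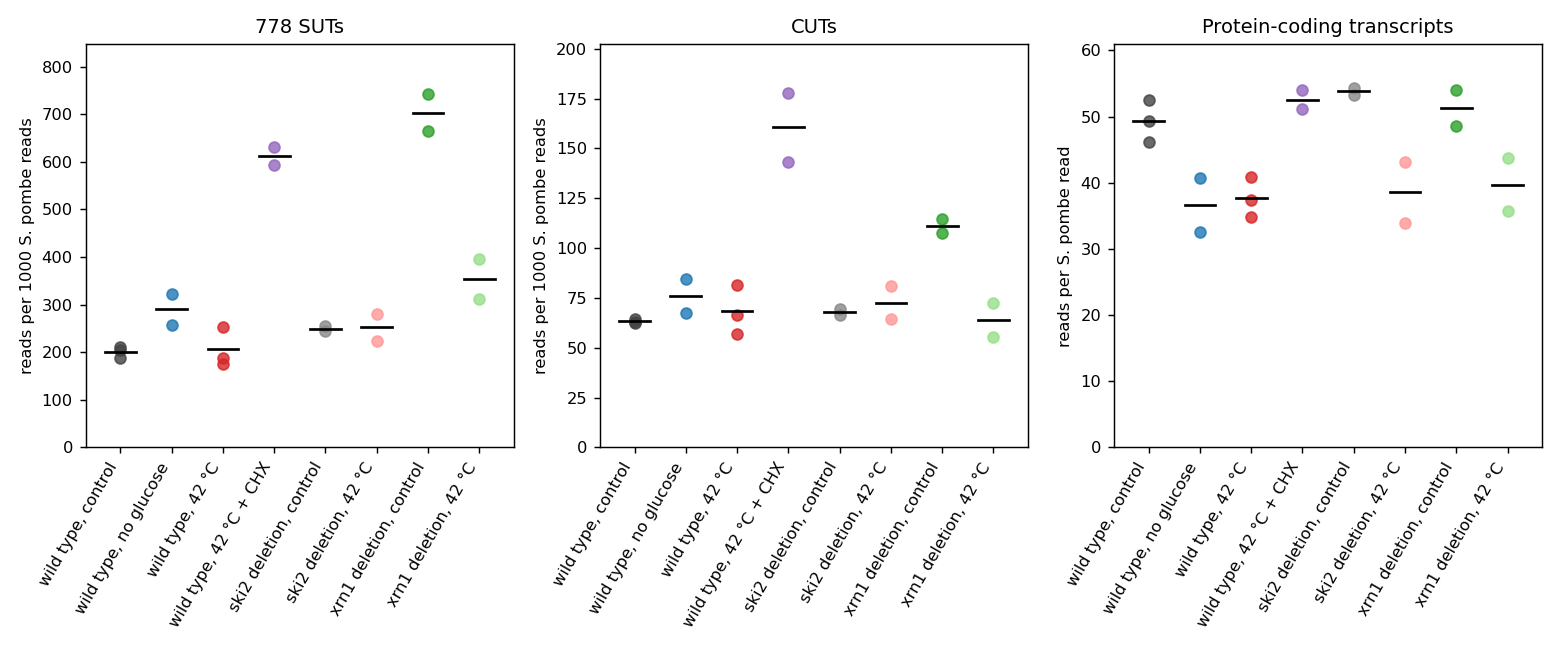
Summed levels of SUTs, CUTs and protein-coding transcripts per library, in reads per 1000 S. pombe reads (SUTs, CUTs) or per S. pombe read (protein-coding), by genotype and treatment. Each point is 1 library and each bar the group mean. SUT sums of 664 and 742 in xrn1 deletion control and 631 and 593 in heat shock with cycloheximide (CHX) lie above those of all other groups.

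The 10 members with the highest mean level over the 18 libraries, not corrected for length, were ST1948, ST0561, ST5713, ST7236, ST0314, ST0191, ST6969, ST0138, ST6502 and ST0895, and they peaked in different groups. ST1948 (1138 nt) stood at 949, 1116 and 1223 scaled reads in the wild-type control libraries and at 19912 and 18296 in xrn1 deletion control, the highest group for this transcript. ST0561 (4210 nt) was at 587, 657 and 658 in wild-type control, 6446 and 5369 after glucose withdrawal, 2512, 2194 and 3991 after heat shock and 31999 and 30917 with cycloheximide. Its xrn1 deletion control libraries, at 1376 and 1467, remained far below the cycloheximide libraries. ST5713 (3578 nt), the most abundant member in wild-type control with 3728, 4123 and 3585 scaled reads, fell to 1539.8, 1586 and 1723 at 42 °C (log2 fold change -1.24 ± 0.16 SE, edgeR adjusted p = 6.01e-10) and stood at 15772 and 17588 in xrn1 deletion control. ST7236 (954 nt), in contrast, was at 296, 291 and 418 in control and 4436, 3294 and 6383 at 42 °C (log2 fold change 3.81 ± 0.21 SE, edgeR adjusted p = 4.64e-23), where library I was the highest.

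Loss of Xrn1 was compared with wild type in unstressed cells to ask how far SUT levels depend on this exonuclease. Most SUTs rose. Of the 778 members, 643 were higher in xrn1 deletion control cells at an edgeR adjusted p below 0.05 (82.6%) and 7 were lower, against 47.2% and 9.31% of the 8103 features tested. The median log2 fold change was 1.57 for SUTs, 0.99 for CUTs, 0.32 for protein-coding transcripts and 0.48 for all features. At least a doubling was called for 552 members and at least an 8-fold rise for 55. The summed SUT level was 3.49 times that of wild type, whereas the protein-coding sum, at 1.04 times, overlapped between genotypes.

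The 5 largest of these rises were in ST1934, ST1950, ST0952, ST2074 and ST1948. ST1950 (1786 nt) had 456, 521 and 424 scaled reads in the 3 wild-type control libraries and 10695 and 9003 in xrn1 deletion control (log2 fold change 4.40 ± 0.19 SE, edgeR adjusted p = 1.82e-25). ST2074 (570 nt) rose from 102, 124 and 179 to 2611 and 2513 (log2 fold change 4.25 ± 0.25 SE, edgeR adjusted p = 3.94e-20), and ST0952 (1338 nt) from 93.9, 111 and 109 to 1894 and 2207 (log2 fold change 4.30 ± 0.24 SE, edgeR adjusted p = 4.55e-21). ST1934 (714 nt) was close to absent in wild-type control, at 8.08, 6.62 and 18.2, and reached 247 and 294 without Xrn1 (log2 fold change 4.63 ± 0.32 SE, edgeR adjusted p = 8.26e-18). Libraries that do not overlap between the groups were a condition for naming these transcripts, so their separation is no further support.

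The members that fell without Xrn1 were ST0804, ST4769, ST2977, ST2976, ST6728, ST0807 and ST2840, the last 2 named after their values were seen. ST0804 (378 nt) dropped from 115, 134 and 123 scaled reads to 37.8 and 33.9 (log2 fold change -1.78 ± 0.34 SE, edgeR adjusted p = 1.09e-05). ST2976 (1594 nt), among the more abundant SUTs, went from 3117, 3284 and 2877 to 1433 and 2361 (log2 fold change -0.71 ± 0.19 SE, edgeR adjusted p = 0.00139), with 1 of the xrn1 deletion libraries much nearer to wild type than the other. Without xrn1 deletion library M the number of members called lower was 1, and with the lettered set as a term in the fit it was 11. With TMM scaling, which centres the bulk of all features, 534 members were higher and 36 lower, and the median log2 fold change of the members was 1.05.

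**Figure D2:**
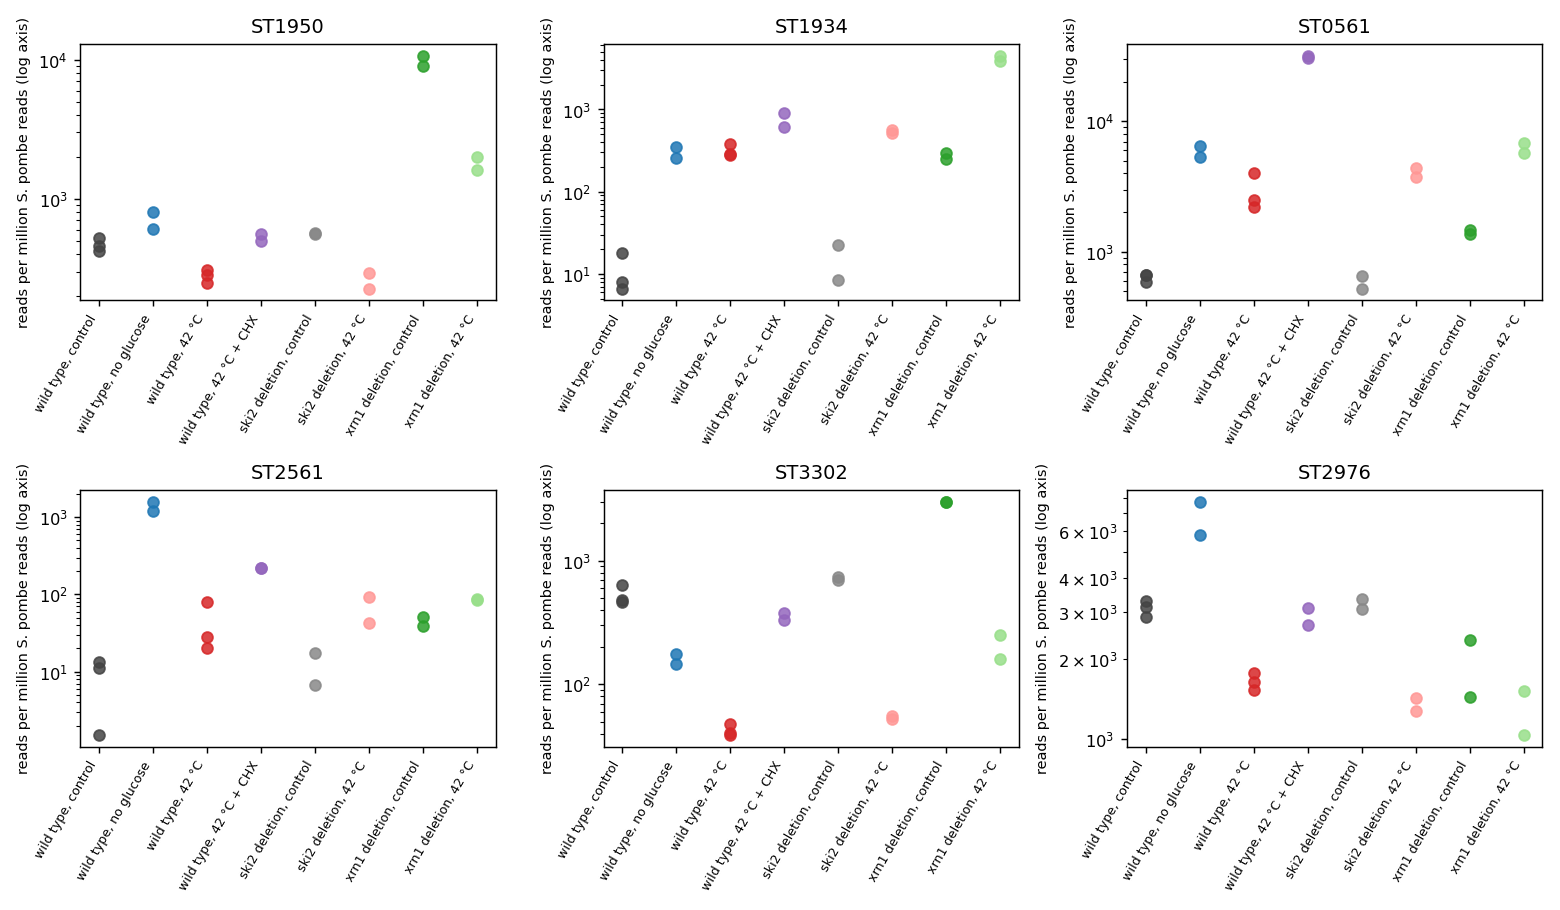
Reads per 1000000 S. pombe reads (log axis) of 6 SUTs in each of the 18 RNA-seq libraries, by genotype and treatment (CHX, cycloheximide), 1 point per library. ST1950 was highest in xrn1 deletion control and ST1934 in xrn1 deletion at 42 °C, ST0561 with cycloheximide, ST2561 and ST2976 after glucose withdrawal, while ST3302 was lowest in wild-type heat shock.

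After heat shock fewer SUTs were higher in xrn1 deletion cells. There 381 members were higher than in heat-shocked wild type and 64 lower, against 38.6% and 11.4% of all features, and the median log2 fold change of the members was 0.61 against 0.30 for all features. TMM scaling gave 270 higher and 155 lower, and without xrn1 deletion library N only 29 were lower. Of the 643 members called higher in control, 372 were also called higher after heat shock, which is 57.9% of the first list and 97.6% of the second, and these comparisons share no library. Over all 778 members, 49.0% were called higher after heat shock and 82.6% in control. The summed SUT level of xrn1 deletion cells was 664 and 742 reads per 1000 S. pombe reads in control and 311 and 396 at 42 °C, 0.503 times the control mean. In wild type the same ratio was 1.02 and in ski2 deletion cells 1.01.

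Among the largest rises without Xrn1 at 42 °C were ST1914, ST5201, ST4652, ST1934 and ST6125. ST1914 (842 nt) stood at 54.5, 60.6 and 30.0 scaled reads in heat-shocked wild type and at 1177 and 1427 in heat-shocked xrn1 deletion cells (log2 fold change 4.74 ± 0.28 SE, edgeR adjusted p = 2.72e-20). ST1934 was at 376, 289 and 279 and 3890.1 and 4514 in the same groups (log2 fold change 3.74 ± 0.23 SE, edgeR adjusted p = 6.44e-20). ST6125 (714 nt) was at 22.5, 15.1 and 13.0 in heat-shocked wild type and at 189 and 205 without Xrn1 (log2 fold change 3.52 ± 0.30 SE, edgeR adjusted p = 1.46e-14). Of the members with the largest falls, ST5118 (1154 nt) had 121, 150.1 and 126 scaled reads in heat-shocked wild type and 33.7 and 42.8 without Xrn1 (log2 fold change -1.80 ± 0.30 SE, edgeR adjusted p = 1.23e-06), and ST4769 had 162, 140.0 and 184 and 24.7 and 50.2 (log2 fold change -2.14 ± 0.32 SE, edgeR adjusted p = 1.68e-07). ST5916, ST0804 and ST0300 made up the rest of the 5 largest falls, with log2 fold changes of -2.25, -2.03 and -1.54.

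The difference between the heat shock responses of xrn1 deletion and wild-type cells was tested directly. The response was lower in xrn1 deletion cells for 383 members and higher for 5, against 17.4% and 9.47% of all features. The median difference on the log2 scale was -0.97 for SUTs, -0.75 for CUTs and -0.07 for protein-coding transcripts. ST0626 (810 nt) rose in wild type from 35.3, 36.4 and 37.9 to 1172, 887 and 2354 scaled reads, but in xrn1 deletion cells it went from 488 and 456 to 1919.8 and 2125 (log2 fold change -3.23 ± 0.36 SE, edgeR adjusted p = 1.79e-09). ST5916 (482 nt) rose from 6.06, 4.97 and 3.03 to 72.3, 42.9 and 171 in wild type and stood at 20.4 and 16.9 in control and 18.0 and 22.2 at 42 °C without Xrn1 (log2 fold change -4.16 ± 0.74 SE, edgeR adjusted p = 2.18e-05). ST1383 (594 nt) went up from 87.9, 104 and 136 to 315, 300.3 and 253 in wild type, and in the mutant stood at 1011 and 1175 in control and 348 and 459 at 42 °C (log2 fold change -2.85 ± 0.35 SE, edgeR adjusted p = 1.52e-08). ST2533 and ST6338 had differences of -3.18 and -2.82 on the same scale.

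The reverse pattern was rare. ST0502 (218 nt) stood at 35.3, 61.2 and 42.4 scaled reads in wild-type control and 60.5, 77.0 and 109 at 42 °C, while without Xrn1 it was at 72.4 and 94.1 in control and 525 and 464 at 42 °C (log2 fold change 1.73 ± 0.43 SE, edgeR adjusted p = 0.00163). ST3271 (1826 nt), an abundant member, was at 1455, 1546 and 1467 in wild-type control and 322, 320.5 and 314 at 42 °C, while in xrn1 deletion cells it was at 5836 and 7576 in control and 2235 and 2708 at 42 °C (log2 fold change 0.78 ± 0.25 SE, edgeR adjusted p = 0.0166). The others were ST1403, ST6102 and ST1871, with differences of 1.17, 1.08 and 1.06. The number called with a lower response was 233 without xrn1 deletion library N, and that with a higher response was 3 without B, 16 without I, 2 without M and 1 without S.

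**Figure D3:**
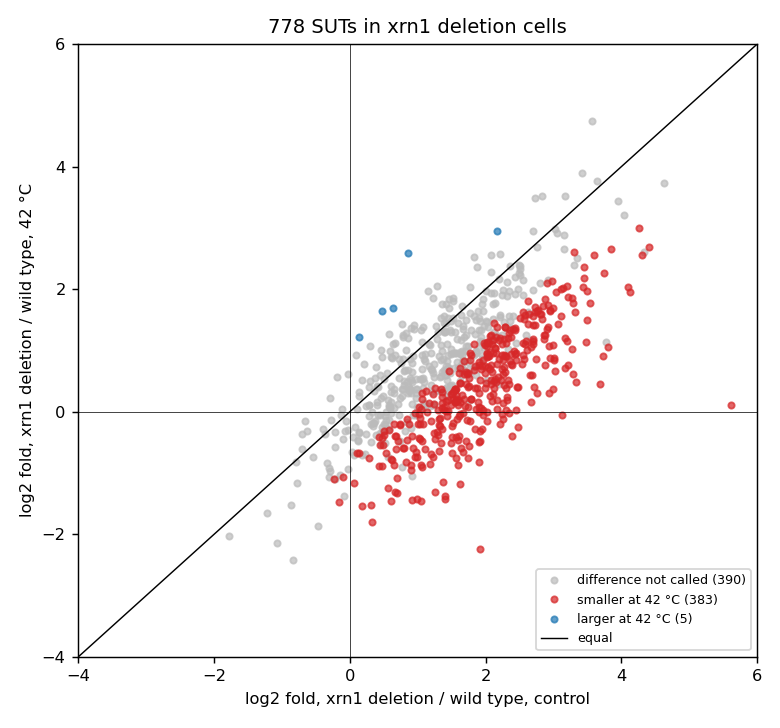
Log2 fold change between xrn1 deletion and wild-type cells in control (horizontal axis) and at 42 °C (vertical axis), 1 point per SUT, scaled by S. pombe reads. The 383 SUTs whose difference was called smaller at 42 °C lie below the line of equality and the 5 called larger lie above it.

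Few SUTs passed the test on loss of Ski2. In control cells 4 members were called higher in ski2 deletion than in wild type and 0 lower, against 0.111% and 0.0123% of all features, and at an unadjusted p below 0.05 the counts were 161 and 1. DESeq2 called 8 higher and 0 lower. ST0858 (298 nt) stood at 68.7, 67.9 and 66.7 scaled reads in wild-type control and at 245 and 176 in ski2 deletion control (log2 fold change 1.63 ± 0.28 SE, edgeR adjusted p = 0.000466). ST3445 (1826 nt) was at 343, 353 and 286 in wild type and 804 and 647 without Ski2 (log2 fold change 1.15 ± 0.22 SE, edgeR adjusted p = 0.00331). ST6007 and ST5221 were the others, with log2 fold changes of 1.22 and 1.12. The median log2 fold change was 0.32 for the members and 0.14 for all features, and the summed SUT level of 254 and 245 lay above the 189, 205 and 210.2 of wild type. The count of members called higher was 2 without wild-type library A, 2 without B, 15 without H, 0 without ski2 deletion library K and 2 without P.

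At 42 °C 11 members were called higher in ski2 deletion cells and 0 lower, against 0.580% and 0.0864% of all features, with 143 and 5 at an unadjusted p below 0.05 and 12 and 0 by DESeq2. These calls depended on single libraries. Without I, 178 members were higher and 2 lower, and without E, F, ski2 deletion library L or Q in turn none was called. With the lettered set as a term none was called either. The largest difference was in ST1426 (370 nt), at 28.4, 24.0 and 49.5 scaled reads in wild-type libraries E, F and I and 100.4 and 78.6 in ski2 deletion (log2 fold change 1.39 ± 0.31 SE, edgeR adjusted p = 0.019). ST3445, the only member called at both temperatures, had 146, 145 and 164 in wild type and 329 and 241 without Ski2 (log2 fold change 0.91 ± 0.23 SE, edgeR adjusted p = 0.0414). ST2252, ST4940 and ST2418 completed the 5 largest with log2 fold changes of 1.23, 0.96 and 0.95. In the test of the difference between the heat shock responses of ski2 deletion and wild-type cells, edgeR called 0 members higher and 0 lower, against 0% and 0% of all features, and DESeq2 called 0 in either direction. At an unadjusted p below 0.05 there were 6 and 11, and without library I edgeR called 12 and 2.

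Heat shock of wild-type cells moved SUTs in both directions. Relative to control, 216 members were higher and 330 lower after 16 min at 42 °C, against 18.6% and 58% of all features. With TMM scaling the split turned to 415 higher and 156 lower. This scaling raised every log2 value in the comparison by about 0.82, moving the median of all features from -0.69 to 0.13 and that of the members from -0.23 to 0.59, so that the median SUT stood 0.47 above the median feature in log2 units whichever scale was used. The summed SUT level was 189, 205 and 210.2 reads per 1000 S. pombe reads in control libraries A, B and H and 188, 176 and 253 in heat shock libraries E, F and I, so the groups overlapped. Within the lettered sets the sums of E and F lay below those of A and B, and I lay above H. Relative to protein-coding reads, SUTs had 4.09, 4.16 and 4.01 reads per 1000 in control and 5.03, 5.06 and 6.21 at 42 °C.

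The SUT with the largest rise was ST1406 (370 nt), at 5.05, 6.62 and 4.55 scaled reads in control and 247, 150.1 and 717 at 42 °C (log2 fold change 6.07 ± 0.46 SE, edgeR adjusted p = 3e-17). ST0626 reached 1172, 887 and 2354 from 35.3, 36.4 and 37.9 (log2 fold change 5.33 ± 0.26 SE, edgeR adjusted p = 8.77e-25) and ST4609 (346 nt) 545, 288 and 1122 from 28.3, 19.9 and 53.0 (log2 fold change 4.27 ± 0.31 SE, edgeR adjusted p = 8.05e-18). In these 3 transcripts library I was the highest heat shock library and F the lowest. Heat shock libraries that all lay above every control library were a condition for naming them. ST1934 and ST5916 also rose, by 4.85 and 4.24 on the log2 scale.

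At the other end stood ST3302, ST1871, ST7074, ST6788 and ST1403. ST3302 (514 nt) fell from 465, 483 and 636 scaled reads to 39.1, 40.4 and 48.2 (log2 fold change -3.63 ± 0.23 SE, edgeR adjusted p = 2.16e-20), and ST1871 (506 nt) from 571, 616 and 667 to 74.7, 53.0 and 53.4 (log2 fold change -3.35 ± 0.23 SE, edgeR adjusted p = 1.09e-18). The fall of ST7074 (619 nt) was from 293, 268 and 306 to 35.6, 35.3 and 23.5 (log2 fold change -3.19 ± 0.24 SE, edgeR adjusted p = 3.16e-17). ST6788 and ST1403 changed by -3.10 and -3.04 on the log2 scale. Here too, groups that do not overlap were a condition for naming.

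Cycloheximide during heat shock was compared with heat shock alone to ask what SUT levels do when ribosomes are held in place. No library came from unstressed cells given cycloheximide, so an effect of the drug by itself cannot be told apart from one on the heat shock response. Nearly all SUTs were higher. Against heat shock alone, 721 of 778 members (92.7%) were called higher and 4 lower, while 79.4% and 2.43% of all features were. Under TMM scaling, where all log2 values fell by about 1.07, the counts were 351 higher and 67 lower. The median log2 fold change of the members was 1.52, against 1.64 for CUTs and 1.02 for protein-coding transcripts. The summed SUT level was 2.97 times that of heat shock alone and the protein-coding sum 1.39 times. In library I, the only heat shock library of the same lettered set, the sum was 253 reads per 1000 S. pombe reads, also below the 631 and 593 of the cycloheximide libraries.

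ST0592 (1042 nt) had the largest rise, from 96.0, 83.3 and 218 scaled reads in heat shock to 2261 and 2302 with cycloheximide (log2 fold change 4.11 ± 0.27 SE, edgeR adjusted p = 2.74e-18), above its 238, 271 and 318 in control. ST1158 (1810 nt) rose from 34.4, 26.5 and 70.4 to 554 and 701 (log2 fold change 3.84 ± 0.30 SE, edgeR adjusted p = 4.11e-16). ST6349 (674 nt), which had dropped from 476, 531 and 550.0 in control to 67.6, 59.3 and 86.0 in heat shock, stood at 708 and 793 with cycloheximide (log2 fold change 3.40 ± 0.24 SE, edgeR adjusted p = 2.18e-17). ST0561 and ST0316 changed by 3.44 and 3.46 on the log2 scale. The 4 members that fell were ST4539, ST5256, ST6944 and ST2571. ST4539 (1506 nt) went from 511, 585 and 459 to 248 and 295 (log2 fold change -0.93 ± 0.23 SE, edgeR adjusted p = 0.000239), and ST5256 (186 nt) from 1552, 1428 and 967 to 691 and 804 (log2 fold change -0.82 ± 0.22 SE, edgeR adjusted p = 0.000625). Without heat shock library E only 2 members were called lower.

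Glucose withdrawal raised more SUTs than it lowered. After 16 min without glucose 282 members were higher than in control and 86 lower, against 22.4% and 33.2% of all features. Their median log2 fold change was 0.32, compared with 0.79 for CUTs and -0.26 for protein-coding transcripts. The summed SUT level was 323 and 258 reads per 1000 S. pombe reads in libraries C and D, 1.44 times the control mean, while the protein-coding sum stood at 0.744 times. Without library D 29 members were called lower.

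ST2561 (906 nt) showed the largest change of any member in any RNA-seq comparison that met the conditions for naming. It was at 11.1, 13.2 and 1.52 scaled reads in control and at 1582 and 1213 without glucose (log2 fold change 7.28 ± 0.42 SE, edgeR adjusted p = 4.29e-21). Its next highest library, with cycloheximide at 42 °C, had 221. ST0680 (1634 nt) rose from 53.5, 67.9 and 56.1 to 2816 and 2247 (log2 fold change 5.43 ± 0.26 SE, edgeR adjusted p = 4.48e-24), and it too was highest in this group, compared with 78.2, 55.5 and 103 at 42 °C. ST1934, ST1914 and ST5916 changed by 4.79, 4.45 and 4.29 on the log2 scale. Falls were more modest. ST5613 (1762 nt) had 141, 184 and 239 scaled reads in control and 54.7 and 41.3 without glucose (log2 fold change -1.95 ± 0.28 SE, edgeR adjusted p = 7.13e-08), and ST3302 had 465, 483 and 636 and 177 and 147 (log2 fold change -1.70 ± 0.23 SE, edgeR adjusted p = 1.83e-08). ST4652, ST6427 and ST2212 fell by 1.42, 1.39 and 1.29 on the log2 scale.

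**Figure D4:**
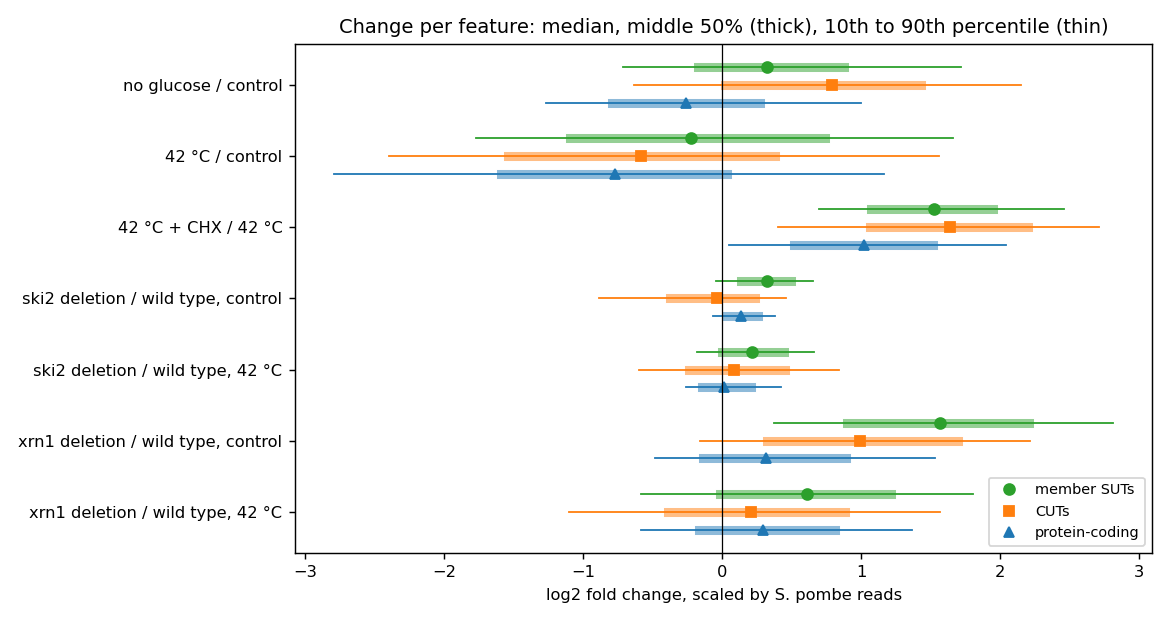
Log2 fold change per feature for SUTs, CUTs and protein-coding transcripts in 7 RNA-seq comparisons, scaled by S. pombe reads (CHX, cycloheximide). Symbols are medians, thick bars the middle 50% and thin lines the 10th to 90th percentile of features. The SUT median was 1.57 for loss of Xrn1 in control and 1.52 with cycloheximide, and its -0.23 at 42 °C turned to 0.59 with TMM scaling.

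The members raised by loss of Xrn1 in control and those raised by cycloheximide at 42 °C come from comparisons without a common library. They shared 603 members, 93.8% of the first list and 83.6% of the second, which is near the 92.7% of all members that cycloheximide raised. Over the 778 members the log2 fold changes of these comparisons had a Spearman coefficient of 0.161, given as a description. Of the members raised by glucose withdrawal, 272 were among those raised by cycloheximide, 96.5% of the first list and 37.7% of the second, and 131 were among those raised by loss of Xrn1 at 42 °C, 46.5% and 34.4% of the lists, where 381 of 778 members (49.0%) were raised by loss of Xrn1 at 42 °C.

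mRNAs for factors that degrade noncoding transcripts, terminate them, or modify chromatin where they are transcribed (among them SET1, SET2, RPD3 and ISW2) were examined as a list of 35 genes. After heat shock 32 of them (91.4%) were lower and 1 (2.86%) higher, against 58% and 18.6% of all features, with a list median of -1.52 beside -0.69 for all features. MTR4, the helicase that feeds RNA to the nuclear exosome, changed by -4.05 on the log2 scale, RRP6, the nuclear exosome nuclease, by -3.04, and AIR1, a subunit of the TRAMP polyadenylation complex, by -3.50. NRD1, which terminates short noncoding transcripts, changed by -2.67 and XRN1 itself by -1.01. AIR2 and NAB3, at -0.18 and -0.16, passed the test in neither direction. DHH1, a decapping activator, was the only one that rose, by 0.34. With TMM scaling, added for this list after the data were seen, 22 were lower and 6 higher, 7 of those called lower had a log2 fold change above 0, and XRN1 stood at -0.19 and no longer passed the test. AIR2 and NAB3 were then among those called higher, at 0.64 and 0.67. After glucose withdrawal 19 were lower and 2 higher, against 33.2% and 22.4% of all features. With cycloheximide at 42 °C 28 (80%) were higher and 0 lower, near the 79.4% and 2.43% of all features, and TMM scaling gave 8 higher and 13 lower. Without Xrn1 in control cells 10 (28.6%) rose and 8 (22.9%) fell, the deleted XRN1 among the latter, against 47.2% and 9.31% of all features, and with TMM scaling 5 were higher and 23 lower. The largest rise was in UPF3, a factor of nonsense-mediated decay, by 2.50 on the log2 scale, followed by SET3 of a histone deacetylase complex with 1.21. In ski2 deletion control cells 1 fell, the deleted SKI2 itself, and 0 rose.

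Of the 778 members, 777 had reads in at least 1 CRAC library, tagged or untagged, but reads were sparse. This count does not separate the initiation factors from each other or from untagged cells. Tagged libraries held 183692 to 4385185 counted reads, of which 958 to 54450 fell on the members, so that 684 members passed the filter on low counts for Ded1, 498 for eIF4B and 303 for eIF4A. Because a member passes through the conditions in which it was bound, counts among these are not counts over all members. Their median fold changes are subject to the same selection. The RNA here was not poly(A)-selected and levels are shares of each library (reads per 1000000 counted reads, RPM), so they cannot show a gain or loss of total binding. SUT reads made up 11.8, 13.3 and 14.3 per 1000 counted reads in the Ded1 control libraries 57, 61 and 65, 7.89, 8.21, 8.04 and 7.31 in those of eIF4B, and 7.01 to 9.35 in the 6 of eIF4A. The 4 untagged libraries held 1, 539, 38 and 18 member reads of 347 to 46692 counted reads, or 2.88, 11.5, 4.67 and 3.10 per 1000. For eIF4A and eIF4B the share on SUTs therefore did not set tagged control libraries apart from untagged ones. The Ded1 control libraries lay above all 4 untagged libraries, the lowest at 11.8 against 11.5 in the deepest untagged library. Mock-shifted cells, filtered and moved to the same medium for 16 min, had shares of 13.1 and 14.2 for Ded1, 8.14, 9.92 and 8.24 for eIF4B and 7.30, 9.16, 7.68 and 10.3 for eIF4A, which overlapped with the control libraries of each factor.

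After removal of glucose the share of CRAC reads on SUTs was lower for all 3 factors. After 30 s the share was 0.873 and 1.03 per 1000 counted reads for eIF4B, 3.49 and 3.26 for Ded1 and 4.02, 2.39 and 2.01 for eIF4A, each below every control library of the same factor. At 16 min it stood at 2.25, 2.35 and 2.21 for eIF4B, at 2.63, 2.37 and 5.19 for Ded1 and at 3.04, 4.58, 4.86 and 4.38 for eIF4A, again below every control library. Per 1000 reads on protein-coding transcripts the SUT reads of Ded1 were 25.0, 24.4 and 21.1 in control, 9.30 and 9.48 at 30 s and 7.54, 7.86 and 9.47 at 16 min. For eIF4B the same measure was 12.2, 11.6, 11.8 and 11.7 in control, 5.72 and 6.11 at 30 s and 9.38, 11.8 and 10.9 at 16 min, so that at 16 min the groups overlapped. eIF4A libraries overlapped at both times, at 30 s through library 51 with 21.9, while libraries 79 and 82 with 13.2 and 12.7 lay below all 6 control libraries, the lowest at 17.3. Library 51 was placed at 30 s by its description, whereas its title says 16 min.

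**Figure D5:**
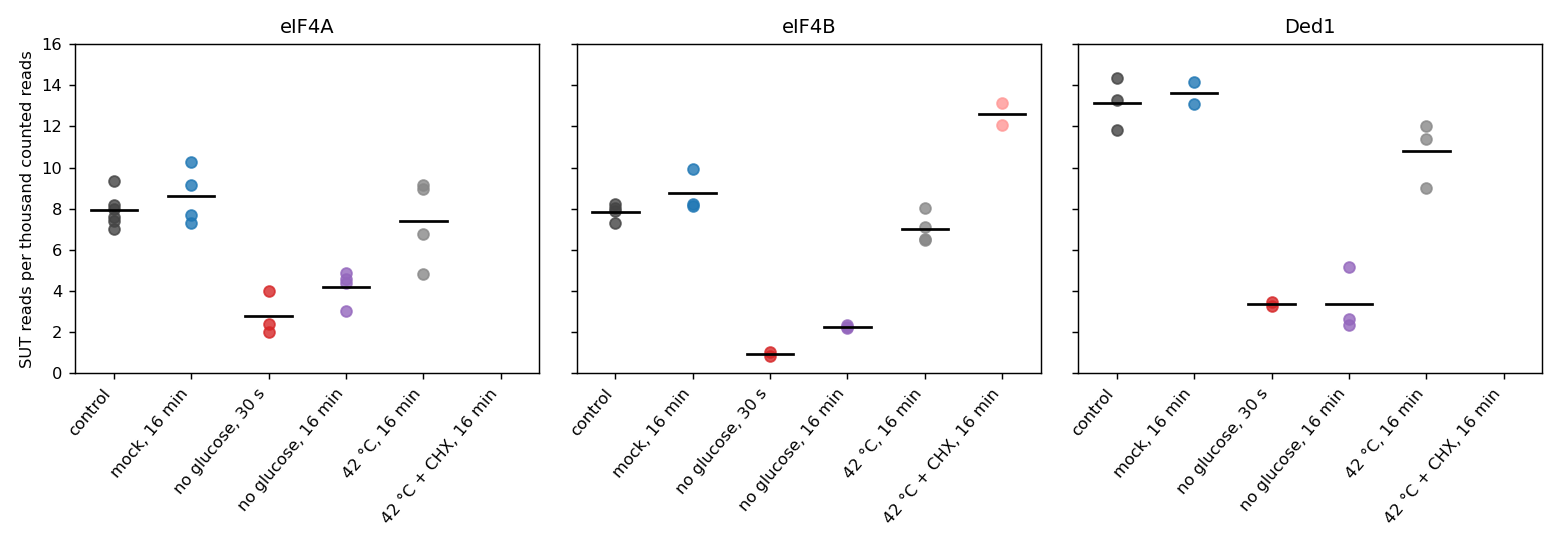
SUT reads per 1000 counted reads in CRAC libraries of eIF4A, eIF4B and Ded1, by treatment (CHX, cycloheximide, for eIF4B only), 1 point per library with the group mean as a bar. Shares after glucose withdrawal, such as 0.873 and 1.03 for eIF4B at 30 s, lie below all control libraries of the same factor.

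In tests of single members the calls after glucose withdrawal were nearly all falls, which was not particular to SUTs. At 30 s 460 protein-coding transcripts were called lower and 1 higher for Ded1, and 524 and 1 for eIF4B. For Ded1 73 members (10.7% of those tested) were called lower and 0 higher at 30 s, with 8.25% of all features called in either direction. At 16 min 52 (7.60%) were lower and 0 higher, with 4.45% of all features called. For eIF4B 26 (5.22%) were lower and 0 higher at 30 s, with 9.31% of all features called. At 16 min 49 (9.84%) were lower and 3 higher, with 18.4% of all features called. The 3 that rose were ST0680, ST2012 and ST4609, named after their values were seen, with 30, 28 and 17 reads after withdrawal and none in control. For eIF4A edgeR called 0 at 30 s (0.552% of all features) and 0 at 16 min (0.178% of all features). At an unadjusted p below 0.05, 78 and 87 members were lower and 2 and 11 higher, and DESeq2 called 13 and 17. The median log2 fold change of the tested members was -3.68 for Ded1 at 30 s, beside -1.06 for all features, and -4.97 for eIF4B, beside -2.23. Sparse members could pass the filter through control, where they were bound, so these medians do not show that SUTs fell more than other features. These fitted values depend on how counts of 0 are treated, since 38 of the 73 Ded1 calls and 18 of the 26 eIF4B calls at 30 s had no read after withdrawal. DESeq2 called 210 members for Ded1 and 127 for eIF4B at 30 s, and 142 and 92 at 16 min, in either direction. Scaled to protein-coding reads, the number called in either direction was 25 for Ded1 and 2 for eIF4B at 30 s, and 14 and 10 at 16 min. Single libraries mattered too. The Ded1 count at 30 s was 43 without library 61, 40 without 65 and 29 without 69, and that at 16 min was 7 to 31 without any 1 of libraries 57, 59, 61, 62 and 65. For eIF4B it was 0 to 13 without any 1 of the 6 libraries at 30 s and 17 to 30 without any 1 of 09, 21, 22, 26, 27 and 71 at 16 min.

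The SUTs with the most CRAC reads in control cells, averaged over the 3 factors, were ST2671, ST1948, ST3639, ST3341, ST4203, ST5582, ST3725, ST0954, ST2976 and ST2173. ST2671 (634 nt) led through eIF4B, with 575, 572, 435 and 234 RPM in control libraries 08, 21, 26 and 71, 33.2 and 8.44 after 30 s and 116, 122 and 59.1 after 16 min without glucose (log2 fold change -4.42 ± 0.83 SE, edgeR adjusted p = 0.00171 at 30 s, and log2 fold change -2.19 ± 0.61 SE, edgeR adjusted p = 0.0142 at 16 min). It had no read in the untagged libraries. On Ded1 the same transcript stood at 76.7, 135 and 119 RPM in control and 19.3, 14.8 and 6.63 after 16 min without glucose (log2 fold change -2.99 ± 0.56 SE, edgeR adjusted p = 0.00458). ST3639 (1266 nt) had 119, 133 and 208 RPM on Ded1 in control and 16.4, 13.2 and 5.96 after 16 min without glucose (log2 fold change -3.66 ± 0.59 SE, edgeR adjusted p = 0.00125), with no untagged read. ST4203 (274 nt) went from 55.1, 99.3, 79.0 and 101 RPM on eIF4B to no read in any of the 3 libraries at 16 min, at least 75.5-fold lower when set against a floor of 3 counts over the group. Of the 3 eIF4B mock libraries, 1 also had no read of ST4203, while the others stood at 214 and 129 RPM. On eIF4B ST2976 was called lower at 16 min without glucose, with 45 reads in 2 of 3 libraries against 700 in the 4 control libraries (log2 fold change -3.05 ± 0.99 SE, edgeR adjusted p = 0.0299). On Ded1 it did not pass the test after glucose withdrawal at either time. It had 50.4, 104 and 32.8 RPM in control and 138 and 126 at 30 s without glucose on Ded1 (log2 fold change 1.06 ± 0.74 SE, edgeR adjusted p = 0.337), and was the member with the most reads in both Ded1 libraries of that time. In untagged library 20, however, ST2976 held 15 reads (321 RPM) and ST0954 held 16 (343 RPM), and untagged library 28 held 3 reads of ST0954 and library 64 a single read of ST3341.

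At 42 °C the share of CRAC reads on SUTs overlapped with control for each factor, while single members changed. The share was 8.99, 12.0 and 11.4 per 1000 counted reads for Ded1, 6.53, 7.09, 8.02 and 6.47 for eIF4B and 8.94, 4.85, 6.75 and 9.15 for eIF4A. The eIF4B library at 6.47 (98) was counted by the authors with a later annotation than the eIF4B control libraries. Its shares and its part in the eIF4B calls carry that limit. For Ded1 12 members (1.75% of those tested) were called higher and 43 (6.29%) lower, with 21.2% of all features called in either direction. For eIF4B 10 (2.01%) were higher and 27 (5.42%) lower, with 23% of all features called. For eIF4A 4 (1.32%) were higher and 1 (0.33%) lower, with 6.95% of all features called. The eIF4A calls, named after their values were seen, were ST0517, ST1471, ST4175 and ST5589 on the higher side, each with reads in 2 or 3 of the 4 heat shock libraries, and ST4203 on the lower, with 1017 reads over 4 of 6 control libraries and none at 42 °C. In eIF4B libraries SUT reads per 1000 protein-coding reads were 12.2, 11.6, 11.8 and 11.7 in control and 22.3, 28.2, 25.5 and 19.6 at 42 °C, while protein-coding reads made up 62.5 to 70.6% and 25.2 to 33.1% of counted reads. CUT reads on eIF4B rose by the same measure, from a mean of 3.10 to 8.79. The SUT means were 22.1 and 44.3 for eIF4A, and 23.5 and 25.3 for Ded1, where the groups overlapped. ST7236, ST4609 and ST1406, which had risen in RNA level, also gained reads here. ST7236 was at 0, 15.0, 44.6 and 28.0 RPM on eIF4B in control and 434, 65.3, 484 and 213 at 42 °C (log2 fold change 3.75 ± 0.92 SE, edgeR adjusted p = 0.00234), and at 22.0, 35.9 and 124 and 381, 427 and 663 on Ded1 (log2 fold change 3.06 ± 0.96 SE, edgeR adjusted p = 0.022). ST4609 had no read in the 4 eIF4B control libraries and 90.3, 256, 303 and 94.7 RPM at 42 °C, at least 305-fold higher against the same floor. ST1406 was bound by Ded1 with 14.9, 39.2 and 64.7 RPM at 42 °C and with no read in control, at least 68.7-fold higher, but had a single read in the 4 eIF4B heat shock libraries. ST4203 fell on Ded1, from 44.3, 49.5 and 147 to 13.0, 19.8 and 4.82 RPM (log2 fold change -2.64 ± 0.94 SE, edgeR adjusted p = 0.0435). The Ded1 count of calls was 29 to 35 without any 1 of libraries 60, 63, 65 and 68, the eIF4B count 19 to 24 without 23, 26, 56, 75 or 98, and the eIF4A count 2 or 3 without any 1 of 8 of its 10 libraries, 15 and 16 excepted.

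With cycloheximide at 42 °C the share of eIF4B reads on SUTs was 12.0 and 13.2 per 1000 counted reads, above all 4 libraries of heat shock alone and all 4 of control. Per 1000 protein-coding reads the SUT reads were 28.3 and 26.5, which overlapped with the 22.3, 28.2, 25.5 and 19.6 of heat shock alone. Protein-coding reads made up 42.5% and 49.6% of counted reads with cycloheximide and 25.2 to 33.1% in heat shock alone. Single members gave few calls, 4 (0.803% of those tested) higher and 0 lower, with 10.2% of all features called in either direction. The tested members had a median log2 fold change of 1.27 beside 1.13 for all features. The 4, named after their values were seen, were ST0138 with 467 reads against 30, ST6349 with 110 against 1, and ST3302 and ST5118 with 75 and 66 against none. At an unadjusted p below 0.05 52 members were higher and 3 lower. ST0561 stood at 0, 0, 18.5 and 45.6 RPM in heat shock and 253 and 181 with cycloheximide, and ST2671 at 649.5, 1187, 603 and 399.7 in heat shock and 392 and 522 with cycloheximide, where the groups overlapped, and neither passed the test. Both cycloheximide libraries (97 and 99) and heat shock library 98 were counted by the authors with a later annotation than the rest, under which counted reads exceeded mapped reads by 18.7% to 30.4%. The number of calls was 0 to 2 without any 1 of the 6 libraries and 0 when scaled to protein-coding reads.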

How the data were processed

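RNA-seq and CRAC libraries of Saccharomyces cerevisiae were analysed from deposited tables. Per the file headers and the study's methods, the authors used Novoalign on intron-free genomes (EF4 for CRAC, S. cerevisiae joined with S. pombe for RNA-seq) and counted reads per feature with pyReadCounters and a custom annotation. In CRAC the authors had collapsed PCR duplicates by random barcodes and placed reads with several matches at random. The deposited values tested here are whole-number read counts per feature on the transcript's strand, and reads on the opposite strand were not analysed. The RPKM values deposited by the authors for RNA-seq served only to derive the annotated length of each feature from its count. The Novoalign version is not given in the sources used here.

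RNA-seq counts were scaled by the summed S. pombe reads of each library, so levels are relative to the total RNA to which a fixed share of S. pombe RNA was added. CRAC counts were scaled by all counted reads. Counts were fitted with edgeR 4.0.16 (quasi-likelihood, R 4.3.3) on all named features that passed a filter (minimum count 10, minimum total count 15), in 1 fit for RNA-seq and 1 for each protein, with Benjamini-Hochberg adjustment over all features tested and a threshold of 0.05. The script was tested on simulated data. Counts over the members have no test of their own. Named members are the 10 with the highest RNA level, the 5 largest called changes in each direction per RNA-seq comparison (a mean of at least 50 reads and, except for differences of responses, groups that do not overlap), and the 10 with the most CRAC reads in control. The members and lists were chosen with earlier results of these data known. Alternatives were TMM scaling, DESeq2 1.42.0, no filter, the lettered set as a term, protein-coding reads as CRAC library size, and leaving out each library. TMM scaling of the 35-gene list was added after seeing the data. Replicates are separately labelled libraries, and where the labels do not state separate cultures p-values measure the spread between these libraries only.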

Additional observations from a re-analysis of the deposited data

Results flagged for a closer look

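The heat shock response of SUTs differed between xrn1 deletion and wild-type cells by the test of the difference itself, in 383 members with a lower and 5 with a higher response in the mutant. The members named for it had differences on the log2 scale of -4.16 (ST5916), -3.23 (ST0626), -3.18 (ST2533), -2.85 (ST1383) and -2.82 (ST6338) on the lower side, and 1.73 (ST0502), 1.17 (ST1403), 1.08 (ST6102), 1.06 (ST1871) and 0.78 (ST3271) on the higher side. A search for CRAC libraries that stand apart from their group in SUT reads flagged none. It covered 14 combinations of group and measure with at least 4 libraries and flags about 1 group in 20 by chance. In groups this small it can miss a library that differs. Untagged library 20 held 11.5 SUT reads per 1000 counted reads, against 2.88, 4.67 and 3.10 in the other untagged libraries.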

How the results depend on the processing

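Several counts of SUT calls moved with scaling, tool or library. With TMM, heat shock gave 415 higher and 156 lower, cycloheximide 351 and 67, loss of Xrn1 36 lower in control and 155 lower at 42 °C, the response difference for Xrn1 16 higher, and loss of Ski2 at 42 °C 1 lower. With the lettered set as a term, loss of Xrn1 gave 11 lower, the response difference 9 higher and loss of Ski2 at 42 °C 0 higher. DESeq2 called 8 higher on loss of Ski2 in control. In CRAC, DESeq2 called 13, 17 and 20 for eIF4A (30 s, 16 min, heat shock), 127, 92 and 9 for eIF4B (30 s, 16 min, cycloheximide) and 210, 142 and 85 for Ded1 (30 s, 16 min, heat shock). Protein-coding reads as library size gave 8 for eIF4A in heat shock, 2, 10 and 0 for eIF4B (30 s, 16 min, cycloheximide) and 25 and 14 for Ded1 (30 s, 16 min). Without a filter eIF4A gave 1, 2 and 18. The cause was not tested. Leaving out 1 library at a time gave 29 to 80 (glucose withdrawal 16 min, lower), 2 to 4 (heat shock with versus without cycloheximide, lower), 0 to 15 (ski2 deletion, control, higher), 0 to 178 (ski2 deletion, heat shock, higher), 0 to 2 (ski2 deletion, heat shock, lower), 1 to 8 (xrn1 deletion, control, lower), 29 to 75 (xrn1 deletion, heat shock, lower), 1 to 16 (heat shock response, xrn1 deletion minus wild type, higher), 233 to 418 (heat shock response, xrn1 deletion minus wild type, lower), 0 to 12 (heat shock response, ski2 deletion minus wild type, higher), 0 to 2 (heat shock response, ski2 deletion minus wild type, lower), 2 to 4 (eIF4A binding, heat shock 16 min), 0 to 13 (eIF4B binding, glucose withdrawal 30 s), 17 to 37 (eIF4B binding, glucose withdrawal 16 min), 19 to 30 (eIF4B binding, heat shock 16 min), 0 to 2 (eIF4B binding, heat shock with versus without cycloheximide), 29 to 55 (Ded1 binding, glucose withdrawal 30 s), 7 to 42 (Ded1 binding, glucose withdrawal 16 min) and 29 to 37 (Ded1 binding, heat shock 16 min). Of 672 alternatives to 68 RNA-seq values of named members, 606 kept the call, 66 lost it and 0 changed direction. No paired analysis was made, because the labels do not say which control and treated libraries belong together.

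In CRAC 475 members had too few reads to be tested for eIF4A. SUTs were seen only as far as poly(A) selection and the annotation allow, and transcripts that overlap on the same strand cannot be told apart.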

Other observations

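Member length and response were set side by side as a description. Among the 261 members of up to 546 nt, 72.0% were called higher without Xrn1 in control, against 87.3% of the 259 members of 554 to 1114 nt and 88.8% of the 258 longer ones, while the median log2 fold changes were 1.43, 1.77 and 1.53. After glucose withdrawal the shares called higher were 26.4%, 36.7% and 45.7%, and the median log2 fold changes 0.17, 0.33 and 0.49. Counts were not corrected for length, and the share called depends on read number as well as on fold change. Length and log2 fold change had a Spearman coefficient of 0.132 after glucose withdrawal and 0.066 without Xrn1 in control. Across the 778 members the mean CRAC share in control was set against the wild-type control RNA level, neither measure being corrected for length. The Spearman coefficient was 0.702 for Ded1, 0.489 for eIF4B and 0.490 for eIF4A. Control libraries had reads on a mean of 650 members for Ded1, 515 for eIF4B and 337 for eIF4A, so these coefficients do not rank the factors.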
